A study of Mus musculus with 36 samples.

Results

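Heart RNA that peaked around midnight in control mice came from 99 genes, of 10599 with a mean of at least 1 FPKM (fragments scaled to gene length and library total) over all libraries. A gene was a member if a 24 h cosine curve, fitted to log2(FPKM + 1) in the control libraries, had an R squared of at least 0.5, an amplitude of at least 0.2 and a fitted peak from clock hour 22 up to 4. The members were thus selected on their control values. Amplitude is the height of the curve above its own mean, in log2 units. The clock genes (Arntl, Clock, Npas2, the Per, Cry, Nr1d, Ror and Bhlhe4 genes, Dbp, Tef, Hlf, Nfil3 and Ciart) were left out by rule, and 2 of these otherwise met it. Another 249 genes met the R squared and amplitude limits with a peak at other hours, which makes 348 with the members.

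The study asked how loss of Klf15 affects daily gene expression in the heart. RNA from the heart apex was sequenced in 36 libraries of C57BL/6 male mice aged 11 to 12 weeks, kept in 12 h of light and 12 h of dark. Controls had the alpha-MHC cre transgene alone, whose promoter is active in heart muscle cells. The other mice, labelled cK15, are described as Klf15 knockouts, and the labels used here do not say by which allele or in which cells Klf15 was lost. Each genotype had 3 libraries every 4 h from 12 am to 8 pm, which gives 18 libraries per genotype. Of the light cycle, the sources used here do not say when lights went on. The labels do not tell whether the 3 libraries of a group were separate animals, and all p-values therefore refer to the variation among libraries, part of which may be technical.

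Klf15 ran from 0.406 to 2.91 FPKM in the control libraries, with a median of 1.28, and was listed at 0 in 13 of the 18 cK15 libraries, the highest of the others being 0.326. The genotypes did not overlap for this gene. Cardiomyocyte markers were high throughout, with group means of their summed FPKM from 81700 to 98600. Depth is unknown, since the files hold no counts, and 10339 to 10829 genes per library reached 1 FPKM. In every group 1 library stood apart from the other 2, with Myl2 at 29700 to 35773 FPKM against 43872 to 71845 in the other 24. These 12 libraries were cK15 replicate 1 and control replicate 2 at each time other than 8 pm, where replicate 4 of both genotypes took that place. Counts are given with and without them, and so are the calls of named genes that change.

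In the circadian clock, BMAL1 and CLOCK bind DNA elements called E-boxes and switch on their own inhibitors, the PER and CRY proteins, and the genes that carry time of day to the rest of the cell. Mice are active and feed at night, and their glucocorticoid hormone rises towards the dark phase, so that genes of fuel use and hormone response are among those known to cycle in the heart. KLF15 is a zinc-finger transcription factor of the Kruppel-like family that binds CACCC and GC-rich sequence, is itself induced by glucocorticoids, and is known for its control of amino acid and fatty acid use in muscle.

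The starts of 4 members are printed because their promoters hold the motif of the clock or of the Kruppel-like family, in members that the results return to. Each is 300 bases on GRCm38.p6 from RefSeq, 250 before and 50 after the start, written 5′ to 3′ along the gene's own strand, with the motif in capitals. Fkbp5 (chr17:28486100-28486399, minus strand), Pfkfb2 (chr1:130715772-130716071, minus strand) and Gadd45g (chr13:51846425-51846724, plus strand) each held 1 E-box, CACGTG. G0s2 (chr1:193273139-193273438, minus strand) held 4 overlapping copies of the CACCC box, searched as CCCCACCC.
Fkbp5: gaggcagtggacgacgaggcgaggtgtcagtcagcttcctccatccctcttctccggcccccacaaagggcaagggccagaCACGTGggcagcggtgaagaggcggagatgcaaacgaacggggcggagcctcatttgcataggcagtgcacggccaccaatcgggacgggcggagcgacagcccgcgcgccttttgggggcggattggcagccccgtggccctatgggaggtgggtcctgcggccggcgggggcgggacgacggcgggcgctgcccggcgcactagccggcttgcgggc
Pfkfb2: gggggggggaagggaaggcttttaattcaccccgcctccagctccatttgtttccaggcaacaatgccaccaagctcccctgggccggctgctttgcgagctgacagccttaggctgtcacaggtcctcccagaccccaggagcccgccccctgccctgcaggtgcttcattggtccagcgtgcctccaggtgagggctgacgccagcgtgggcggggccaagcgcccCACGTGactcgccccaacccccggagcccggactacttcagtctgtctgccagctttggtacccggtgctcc
Gadd45g: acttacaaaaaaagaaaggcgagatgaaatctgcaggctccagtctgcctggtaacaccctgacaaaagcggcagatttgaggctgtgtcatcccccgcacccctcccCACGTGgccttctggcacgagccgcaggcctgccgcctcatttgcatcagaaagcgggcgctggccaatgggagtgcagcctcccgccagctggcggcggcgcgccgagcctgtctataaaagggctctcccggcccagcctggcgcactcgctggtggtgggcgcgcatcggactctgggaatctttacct
G0s2: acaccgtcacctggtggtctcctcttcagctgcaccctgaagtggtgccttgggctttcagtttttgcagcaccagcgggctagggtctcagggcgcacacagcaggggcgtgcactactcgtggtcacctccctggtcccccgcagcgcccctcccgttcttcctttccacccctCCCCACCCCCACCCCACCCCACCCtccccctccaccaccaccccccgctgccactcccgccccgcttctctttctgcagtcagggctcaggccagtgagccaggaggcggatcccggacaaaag

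Of the 99 members, 75 had a promoter in the RefSeq table, as had 8453 of all tested genes. An E-box lay in the promoters of 9 members, 12.0%, against 12.2% of all tested genes with a promoter. The CACCC box was found for 9 members, 12.0%, against 14.4% of all, and the short ROR element AGGTCA for 12 members, 16%, against 14.9% of all. Both strands were searched. The D-box TTATGTAA, the longer ROR element, which contains the short form, the glucocorticoid element, the heat shock element and the cyclic AMP element TGACGTCA were found for 0 of the 75 members. Their shares of all tested genes were 0.639%, 0.615%, 0.45%, 0.615% and 3.54%, in that order. A match describes letters in this window and is no evidence of binding, and the absence of a match says only that the letters are not in it.

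The members lay on 20 chromosomes. By GENCODE M21 and RefSeq (both GRCm38), 87 were protein-coding and 12 were of other kinds, and 57 overlapped another annotated gene. Within 100000 bases of each other lay 5 pairs of members: Fmo1 and Fmo2 (7707 bases apart on chromosome 1), Gsta3 and Gm4956 (19585 bases, chromosome 1), AI507597 and Slc25a34 (3220 bases, chromosome 4), Tmem57 and D4Wsu53e (70247 bases, chromosome 4), and E030003E18Rik, which lies within Aldh1a1 on chromosome 19. The sources used here do not say whether the authors' counting used the strand, so the levels of overlapping genes may share reads.

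The values that chose the members are given as a description. Control amplitudes ran from 0.203 (Dync2h1) to 0.98 (Gsta3) with a median of 0.309, and R squared from 0.502 to 0.906 with a median of 0.604. Mean levels ran from 1.16 to 241 FPKM, with a median of 13.8. The fitted peak fell between 22 and 24 h for 56 members, between 0 and 2 h for 27 and between 2 and 4 h for 16. The control group mean was highest at 12 am for 58 members, at 8 pm for 30 and at 4 am for 11, and it was lowest at 12 pm for 58, at 4 pm for 24 and at 8 am for 16. By the same curve 74 members passed an adjusted p under 0.05 in the control libraries, where 2.8% of all tested genes did, and nothing is read from that count. Every control library of 12 am lay above every control library of 12 pm for 92 members.

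The thresholds cut through a continuum. Just inside the limit on R squared were 4930429F24Rik (0.502) and Cep85 (0.503), and just outside were Prkce (0.498) and Dbt (0.492). On amplitude, Dync2h1 (0.203) and Limd1 (0.205) were inside and Naa16 (0.199993) and D14Abb1e (0.199) outside. At the early end of the window, Dync2h1 and Lonrf1 (both clock hour 22.06) were inside and Trip10 (21.9) and the glucocorticoid-induced Tsc22d3 (21.9) outside. At the late end, Pfkfb2 (3.84) and B430212C06Rik (3.71) were inside and Phc2 (4.04) and Phrf1 (4.05) outside.

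**Figure D1:**
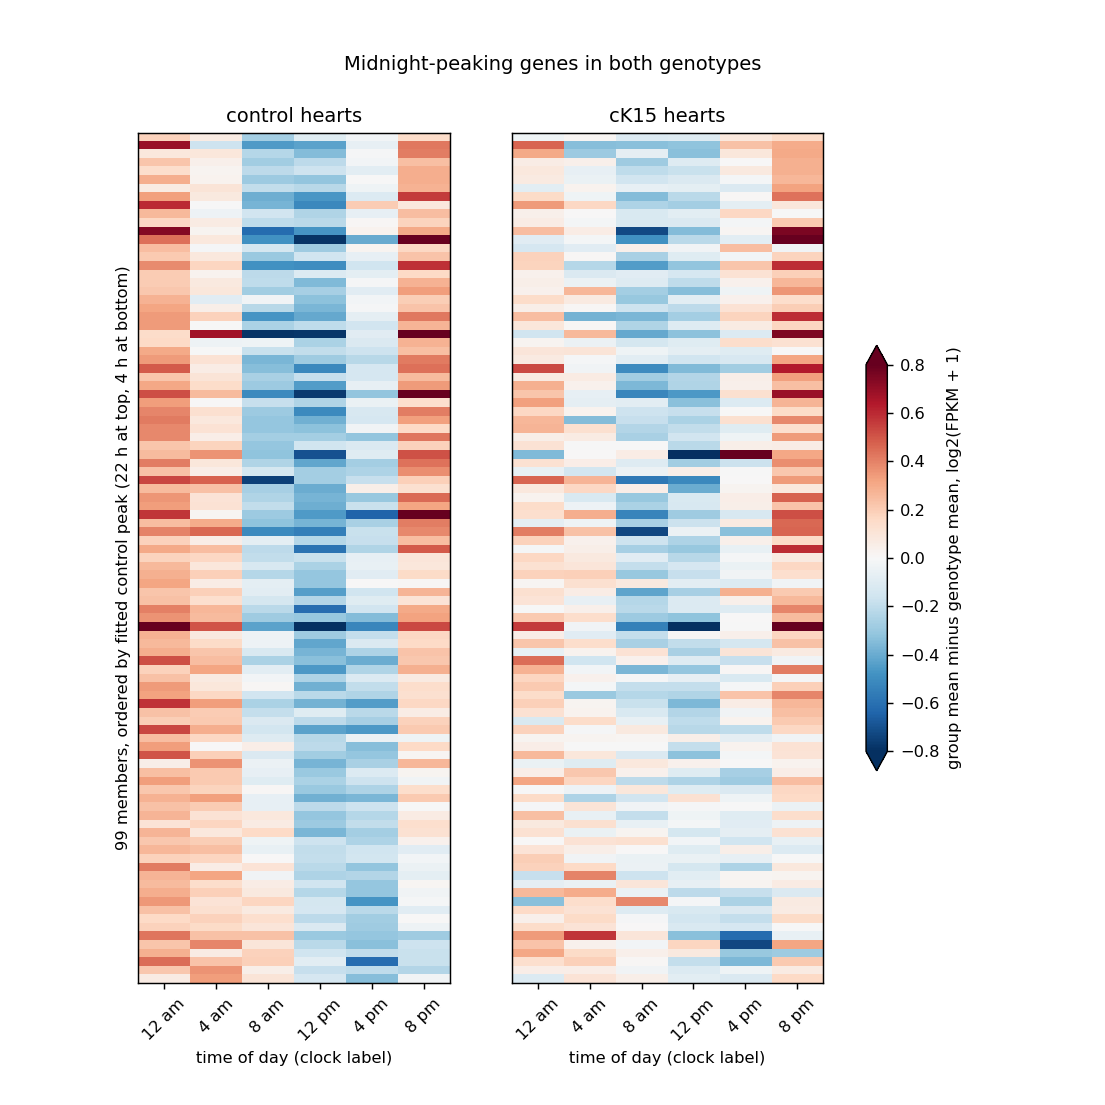
Each row is a member, ordered by fitted control peak from clock hour 22 (top) to 4 (bottom), and each column a time of day, with control hearts left and cK15 hearts right. Color is the log2(FPKM + 1) of the group's mean FPKM (3 libraries) minus the gene's average over the 6 times in that genotype, cut at 0.8 either way. The control panel shows the high values at 8 pm, 12 am and 4 am that chose the genes. In the cK15 panel the color is paler, which that choice favours. There the highest mean was at 8 pm for 50 members and at 12 am for 27.

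The cK15 libraries entered the choice of members only through the limit on mean FPKM. In them, 15 of the 99 were rhythmic by limma's F test of the 24 h curve (adjusted p under 0.05 over all 10599 genes). Over all tested genes 114 were, or 1.08%. Of the 15, 6 peaked between 22 and 4 h, where 11 of all tested genes did (0.104%), 8 peaked between 20 and 22 h, and 1 peaked between 18 and 20 h. From 20 to 4 h the members held 14 of the 25 rhythmic genes (0.236% of all tested). Before adjustment, 59 members had a p under 0.05 (8.95% of all tested genes did), and 25 of them peaked between 22 and 4 h (1.93%). The 15 were Gsta3, Msantd1, Aldh1a1, G0s2, 2810403A07Rik, Pik3r1, Fmo2, Plin4, Fkbp5, E030003E18Rik, Rgs13, Bclaf1, Pdzrn3, Ppip5k2 and Ahnak.

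The calls depended on the libraries used, and leaving out a replicate number also leaves fewer libraries to test. Leaving out cK15 replicate 3 at every time left 4 of these calls, leaving out replicate 4 left 4, and leaving out replicate 1 gave 10, of which 5 were among the 15. A test of any difference among the 6 times, without a curve, called 3 members. Without the 12 libraries that stood apart 13 members were called, and with a term for them 35. The 13 held 7 of the 15, namely Gsta3, Aldh1a1, Fmo2, G0s2, 2810403A07Rik, Pik3r1 and Msantd1. The shares of all tested genes under these other settings are not given here, so nothing about the members is read from the changes in count.

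Over 12 or 13 other settings, the rhythm call was lost in 0 for Gsta3, Aldh1a1 and Msantd1, in 3 for G0s2, and in 4 for 2810403A07Rik, Fmo2 and Pik3r1. It was lost in 5 for Plin4 and Rgs13, in 6 for Fkbp5, E030003E18Rik and Pdzrn3, in 7 for Bclaf1, and in 9 for Ppip5k2 and Ahnak. Without the 12 libraries the calls of Fkbp5 and Plin4 (limma adjusted p = 0.0632 each), E030003E18Rik (0.0852), Ahnak (0.133), Pdzrn3 (0.241), Bclaf1 and Ppip5k2 (0.26 each) and Rgs13 (0.283) were lost, while Xdh (0.0234), Glul (0.0218), Ppp1r3a (0.0192), Ces1d (0.0114) and Lyve1 (0.019) passed. With a term for the 12 libraries Dgat2 (limma adjusted p = 0.00857), Glul (0.0232), Ppp1r3a (0.0123), Ces1d (0.000486), Nampt (0.0167), Lgals4 (0.00741), Aqp1 (0.0269), Mknk2 (0.0373) and Lonrf1 (0.011) passed.

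The cK15 amplitude had a median of 0.207 over the 99 members, from 0.0305 to 0.812, against 0.0841 over all tested genes. It was below the control amplitude for 89 members, a direction that the choice of genes by their control curve favours. When the same rule was applied to the cK15 libraries, as a choice made after seeing the data, 25 genes met it and 12 of them were members. Among those 25 genes the control amplitude was the smaller for 14, with medians of 0.302 in cK15 and 0.30 in control. Every cK15 library of 12 am lay above every cK15 library of 12 pm for 36 members, as for 4.34% of all tested genes. No member passed the test of a difference in rhythm between genotypes by limma (0 of 10599 genes, 0%, at an adjusted p under 0.05). Unadjusted, 27 members and 2.75% of all tested genes had a p under 0.05. That test uses the control curve which chose the members, so nothing is read from its counts.

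**Figure D2:**
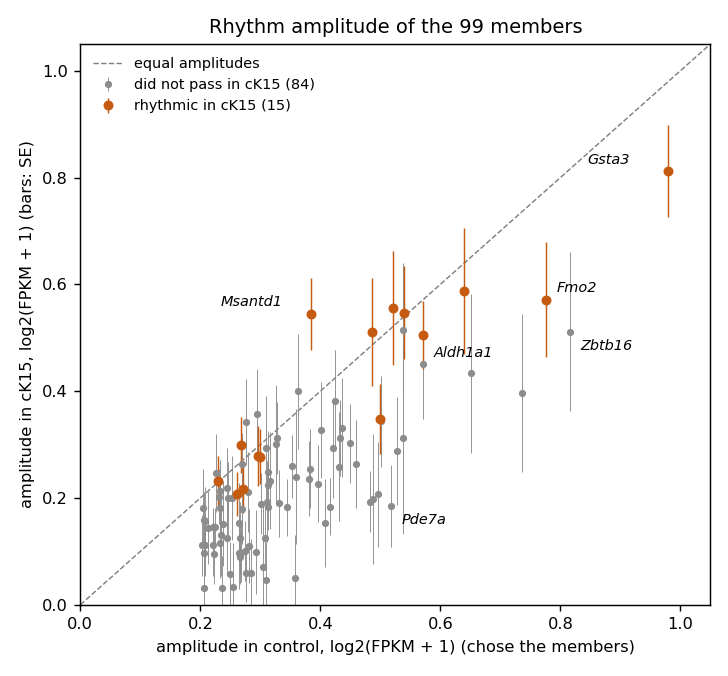
Each point is a member, with its fitted amplitude in control on the x axis and in cK15 on the y axis (log2(FPKM + 1) units, bars give the SE of the cK15 amplitude), orange for the 15 rhythmic in cK15. Most points lie below the dashed line of equal amplitudes, which the choice of members favours. Gsta3 stands at 0.98 and 0.81, and Msantd1 lies above the line at 0.38 and 0.55.

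The fitted cK15 peak of all 15 rhythmic members was earlier than the control peak, by 0.133 to 2.75 h with a median difference of -1.13 h. Because the control peak chose the members, these differences are a description. Among genes the rule did not choose, the fitted peak was earlier in cK15 for 14 of 14 clock genes rhythmic in both genotypes (median -1.61 h, from -2.75 to -0.799) and for 49 of 52 other genes rhythmic in both (median -1.68 h). Of the 25 genes that met the rule in cK15, 11 were rhythmic in control, and 9 of these peaked earlier in cK15, with a median of -0.526 h. Without the 12 libraries that stood apart the cK15 peak was earlier for 13 of the 15 members and 14 of the 14 clock genes, and in those 12 libraries alone for 11 and 13. None of these genes passed the test of a difference in rhythm after adjustment. Unadjusted, 8 of the 14 clock genes had a limma p under 0.05 in that test, where 2.75% of all tested genes did.

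**Figure D3:**
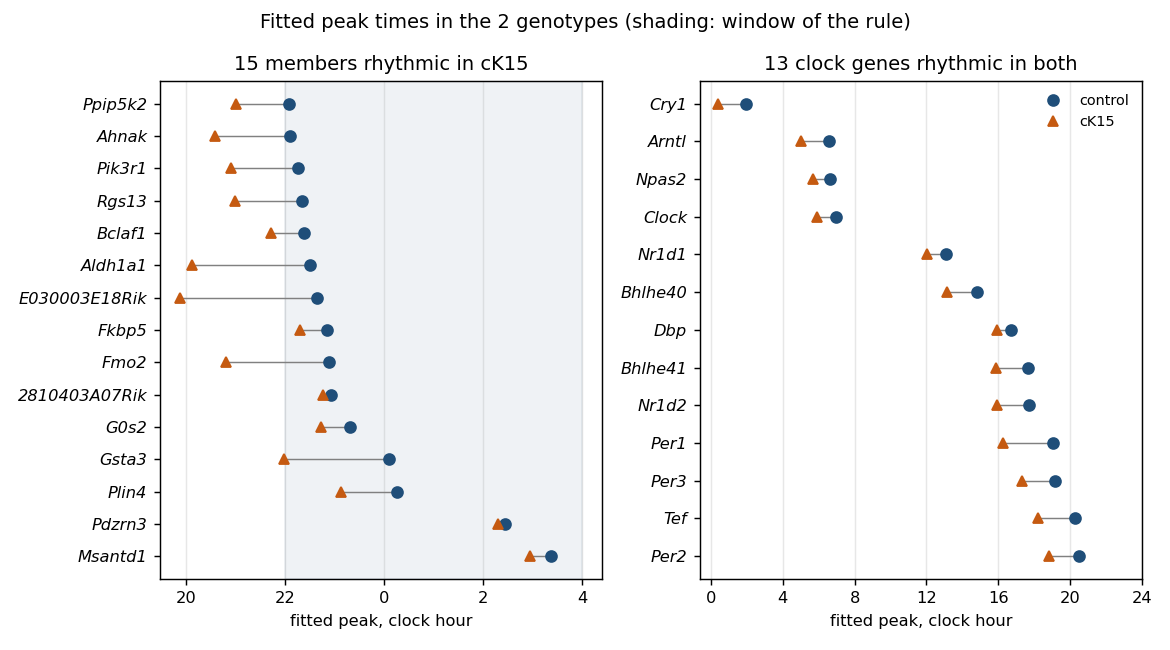
Fitted peak in clock hours in control (blue circles) and cK15 (orange triangles) for the 15 members rhythmic in cK15 (left, with the window of the rule shaded) and 13 of the 14 clock genes rhythmic in both genotypes (right). Every triangle lies to the left of its circle, by 0.133 h for Pdzrn3 and 2.75 h for E030003E18Rik among the members.

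By genotype, averaged over the 6 times, 29 of the 99 members differed (limma, adjusted p under 0.05), where 11.2% of all tested genes did. Of these, 16 were higher in cK15 (4.06% of all tested genes were) and 13 were lower (7.18%). Without adjustment 40 members had a p under 0.05 (23.2% of all). The average over evenly spaced times does not use the cosine and sine terms that chose the members. The limit on R squared favours genes of small control spread, which also enters the genotype test, so the members' shares may be raised by it. The median log2 fold change was 0.01 over the members and -0.01 over all tested genes. With libraries paired by replicate number, which compares only numbers 3 and 4 between genotypes, 20 members were called, 9 higher and 11 lower. The count of higher members was 4 without control replicate 4, 6 without control replicate 3 or cK15 replicate 1, 9 without cK15 replicate 4 and 8 without the 12 libraries that stood apart, and that of lower members was 8 without control replicate 2 and 10 without the 12. Without the 12 libraries, which leaves fewer to test, 17 of the 29 calls were kept, and with a term for them all 29 were. The shares of all tested genes under these other settings are not given here. Cell type markers also differed by genotype: 7 of 9 macrophage and 5 of 7 fibroblast markers tested were lower in cK15, and 3 of 9 cardiomyocyte markers were higher. Their summed levels had group means of 213 to 254 FPKM in control and 171 to 232 in cK15 for macrophages, 1520 to 1630 and 1310 to 1450 for fibroblasts, and 81700 to 93200 and 91500 to 98600 for cardiomyocytes. Their part in the members' differences was not tested.

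Over 14 or 15 other settings, 9 of the 29 genotype calls were never lost, among them those of Prodh, Slc25a34, AI507597, Lgals4, Acot11, B430212C06Rik, Aldh1a1 and Pfkfb2. The call was lost in 1 setting for Ppip5k2, in 2 for Gm16023 and 4833422C13Rik, in 3 for Glul, in 4 for Ahnak, Dnaja1 and Mknk2, and in 5 for 4930429F24Rik, Aqp1, Coasy, Gm15910, Msantd1 and Txndc16. It was lost in 6 for Abca8a, Fam160a1 and Ifrd1, in 7 for Pdzrn3 and Ppargc1a, in 8 for 5031434C07Rik and in 9 for Timp4. Without the 12 libraries the lost calls were those of Gm15910 (limma adjusted p = 0.0536), Ifrd1 (0.058), Pdzrn3 (0.0717), 4930429F24Rik (0.0926), Mknk2 (0.101), Txndc16 (0.117), Coasy (0.12), Ppargc1a (0.123), 4833422C13Rik (0.13), Timp4 (0.171), Fam160a1 (0.184) and Abca8a (0.186).

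**Figure D4:**
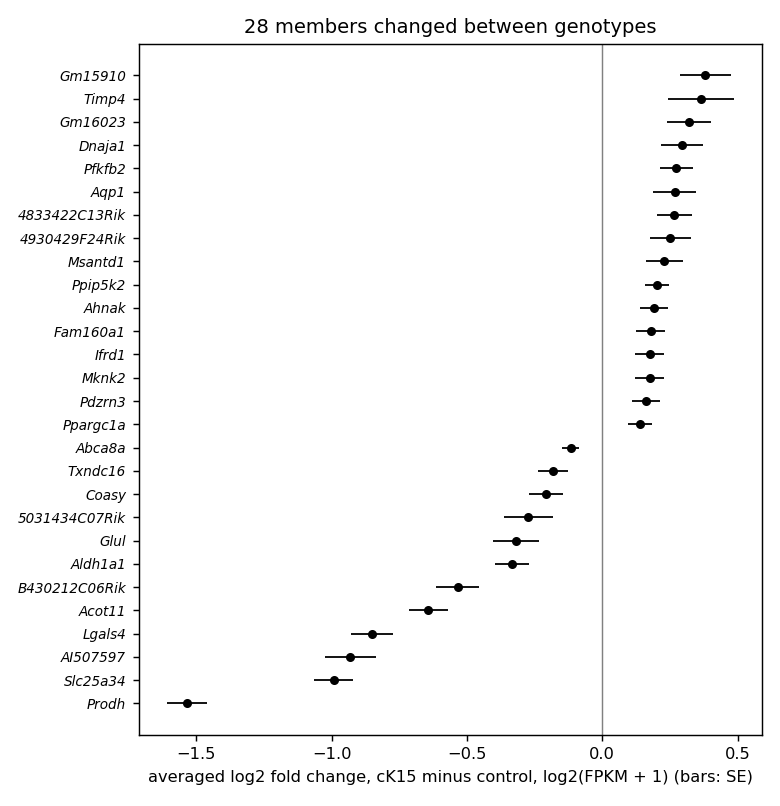
Averaged log2 fold change, cK15 minus control, of 28 of the 29 members that differed between genotypes (points, with bars for the SE). Prodh lies at -1.53, Slc25a34, AI507597, Lgals4 and Acot11 between -0.99 and -0.64, and the 16 higher members between 0.14 and 0.38.

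The enzymes of detoxification and retinoid metabolism included the member of largest amplitude in either genotype. Gsta3 encodes a glutathione transferase, which couples glutathione to reactive compounds, and lies on chromosome 1 at 21240589 to 21265661. It was at 24.1, 35.7 and 27.6 FPKM in the control libraries of 12 am and at 6.77, 6.08 and 7.62 in those of 12 pm. In cK15 it was at 17.2, 24.3 and 20.9 FPKM at 12 am, 7.03, 8.86 and 5.66 at 12 pm, and 24.9, 30.9 and 22.1 at 8 pm. In cK15 each noon library lay well below each midnight library, as in control, where the choice of members favours it. The highest cK15 group was that of 8 pm. The cK15 amplitude was 0.81 (SE 0.086; limma adjusted p = 4.06e-05) beside 0.98 (SE 0.085) in control, with peaks at clock hours 21.99 and 0.09. Gsta3 belongs to a family of similar genes, so that reads may have been split between members of the family.

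Aldh1a1 encodes a retinal dehydrogenase that makes retinoic acid, on chromosome 19 at 20492715 to 20643465. Its control level was 41.2, 51.1 and 37.3 FPKM at 12 am, 48.0, 49.7 and 52.1 at 8 pm and 22.1, 24.5 and 22.4 at 12 pm. The cK15 libraries gave 27.7, 32.9 and 28.1 FPKM at 12 am, 39.4, 44.3 and 35.4 at 8 pm and 17.3, 25.4 and 19.2 at 12 pm. The curve passed in cK15 (amplitude 0.50, SE 0.064; limma adjusted p = 0.000316; 0.57, SE 0.062, in control) with its fitted peak at 20.1 h beside 22.5 h. Its average level was lower in cK15, by a log2 fold change of -0.33 (SE 0.064; limma adjusted p = 0.000452). E030003E18Rik, a long noncoding RNA that shares the start of Aldh1a1, was also rhythmic in cK15 (amplitude 0.51, SE 0.101; limma adjusted p = 0.0322) and may share its reads.

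Fmo1 and Fmo2 are neighbouring genes for flavin-containing monooxygenases, which oxidise nitrogen and sulfur in small molecules. Fmo2 ranged from 2.85 to 20.8 FPKM in control and from 4.14 to 17.9 in cK15, and passed the rhythm test in cK15 (amplitude 0.57, SE 0.107; limma adjusted p = 0.0211). Fmo1 was at 26.03, 25.01 and 26.32 FPKM at 12 am in control and at 16.45, 16.69 and 16.01 at 12 pm. The corresponding cK15 values were 19.3, 22.1 and 21.5 and then 17.1, 19.8 and 16.2 FPKM. Separate control groups are favoured by the choice of members, so nothing is read from them. The cK15 libraries overlapped, with an amplitude of 0.18 (SE 0.054) that did not pass (limma adjusted p = 0.286), beside 0.42 in control. Xdh, whose product completes purine breakdown to uric acid, ran from 41.6 to 104 FPKM in control and 44.3 to 105 in cK15, with an amplitude of 0.34 in cK15 that did not pass either (limma adjusted p = 0.128) but passed without the 12 libraries apart or without cK15 replicate 1.

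Glucocorticoid-responsive genes gave 3 members, Fkbp5, Zbtb16 and Glul, of the 18 tested on that list. Fkbp5 encodes a co-chaperone that lowers hormone binding by the glucocorticoid receptor. It was at 5.29, 6.61 and 6.84 FPKM at 12 am and 2.55, 2.65 and 2.63 at 12 pm in control, and at 7.33, 4.28 and 7.01 and then 2.47, 3.33 and 2.94 in cK15. Midnight lay above noon in every cK15 library, as in control, where the choice of members favours it. The cK15 curve passed (amplitude 0.56, SE 0.108, limma adjusted p = 0.0262, control 0.52). Zbtb16, a zinc-finger transcription factor, was highest at 8 pm in both genotypes, with 12.7, 10.7 and 12.8 FPKM in control and 14.7, 11.7 and 11.1 in cK15. Its values at 12 pm were 2.41, 2.40 and 2.36 FPKM in control and 5.59, 5.97 and 4.31 in cK15. The control noon values are part of the curve that chose this gene. Its average by genotype did not pass (log2 fold change 0.29, SE 0.12; limma adjusted p = 0.133). The cK15 amplitude of 0.51 (SE 0.149) did not pass either (limma adjusted p = 0.279; control 0.82).

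Glul encodes glutamine synthetase. It ran from 103 to 247 FPKM with a median of 153 in control and from 81.2 to 182 with a median of 124 in cK15, so that the ranges overlapped. Its average was lower in cK15 (log2 fold change -0.32, SE 0.086; limma adjusted p = 0.0134), and its cK15 amplitude of 0.29 did not pass (limma adjusted p = 0.377), but passed under 3 of 13 other settings. On the whole list of 18 genes 6 were rhythmic in control and 3 in cK15, 1 of the latter with a peak between 22 and 4 h. By genotype 2 were higher and 4 lower in cK15. Over all tested genes 2.8% were rhythmic in control and 1.08% in cK15. The lists described hold members, which were chosen by their control rhythm. Nothing is therefore read from more calls in control than in cK15, here or on the lists below.

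Of the lipid storage genes, G0s2 and Plin4 were rhythmic in cK15 and peaked in the same window. G0s2 encodes an inhibitor of the fat-splitting enzyme ATGL, on chromosome 1 at 193272161 to 193273217. Control libraries gave 35.5, 34.9 and 36.7 FPKM at 12 am and 23.7, 19.5 and 17.0 at 12 pm, and cK15 libraries 39.5, 26.8 and 29.7 and then 15.6, 12.5 and 19.0. The groups of midnight and noon did not overlap in cK15, nor in control, where the choice of members favours it. The cK15 amplitude was 0.55 (SE 0.087, limma adjusted p = 0.00428) beside 0.54 in control. Plin4, which coats lipid droplets, was at 24.3, 19.6 and 23.0 FPKM at 12 am and 17.4, 17.1 and 14.8 at 12 pm in cK15, and passed there too (amplitude 0.28, SE 0.052; limma adjusted p = 0.0211; control 0.30). Their cK15 peaks were at 22.7 h and 23.1 h.

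Dgat2, which completes triglyceride synthesis, was among the most abundant members, at 134 to 332 FPKM in control and 115 to 288 in cK15. Its cK15 amplitude of 0.33 (SE 0.089) did not pass (limma adjusted p = 0.208; 0.00857 with a term for the libraries apart and 0.000301 with a replicate block), and at each of the 6 times, in both genotypes, its highest library was the 1 that stood apart. Ces1d, a carboxylesterase that splits stored lipid, ran from 176 to 334 FPKM in control and 156 to 301 in cK15, with a cK15 amplitude of 0.26 (limma adjusted p = 0.0817; 0.0114 without the 12 libraries). Acot11, an acyl-CoA thioesterase, was lower in cK15 (3.91 to 7.70 FPKM in control, 2.01 to 4.26 in cK15; log2 fold change -0.64, SE 0.072; limma adjusted p = 8.26e-08). Of the 8 adipocyte markers, Fabp4, which endothelial cells also express, was at 866 to 1980 FPKM. The other 7 were at most 3.35 FPKM in any library (Cfd), and Adipoq, Plin1, Retn, Lep, Cidec and Ucp1 at most 1.29 (Retn), with Adipoq listed at 0 in 33 of the 36 libraries. The summed level of the 8 markers had control group means from 1260 to 1560 FPKM and cK15 means from 1130 to 1330. On the list of fatty acid uptake and oxidation, which holds Dgat2 and Ppargc1a, the rhythm test called 2 of 36 tested genes in control and 0 in cK15 (limma; 3 with an unadjusted p under 0.05). The members on this list were chosen by their control rhythm, which favours calls in control. By genotype, 25 genes of the list were lower and 2 higher in cK15.

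Among the genes of glucose, NAD and mitochondrial control described next, none passed the rhythm test in cK15 after adjustment (limma; Nampt and Ppp1r3a had unadjusted p of 0.00964 and 0.011). Ppp1r3a passed under 4 of 13 other settings (adjusted p = 0.0192 without the 12 libraries apart) and Nampt under 2 of 13. Pfkfb2 sets the level of fructose 2,6-bisphosphate, the activator of glycolysis. It was at 77.0, 74.5 and 75.5 FPKM at 4 am and 45.3, 44.1 and 52.1 at 4 pm in control, and at 93.0, 69.4 and 72.8 and then 71.9, 50.2 and 79.4 in cK15. The control groups were separate, which the choice of members favours, and the cK15 groups overlapped. The cK15 amplitude was 0.06 (SE 0.064; limma adjusted p = 0.999) beside 0.28 (SE 0.055) in control, and the average was higher in cK15 (log2 fold change 0.27, SE 0.060; limma adjusted p = 0.00198).

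Ppargc1a encodes PGC-1alpha, a coactivator that raises mitochondrial gene expression. In control it was at 25.2, 19.4 and 22.05 FPKM at 12 am and 15.1, 15.2 and 15.3 at 12 pm, and in cK15 at 22.1, 20.4 and 20.3 and then 19.8, 21.1 and 17.7. Noon was the low group in control, as the choice of members favours. In cK15 noon overlapped midnight, and the amplitude was 0.06 (SE 0.054; limma adjusted p = 0.999) beside 0.28 (SE 0.044) in control. Its average was higher in cK15 by a log2 fold change of 0.14 (SE 0.045; limma adjusted p = 0.043). For both genes the difference in rhythm did not pass after adjustment.

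Nampt, the rate-limiting enzyme of NAD salvage, ran from 56.4 to 156 FPKM in control and 78.6 to 141 in cK15, with amplitudes of 0.48 and 0.19 (limma adjusted p in cK15 = 0.279). Nmrk2, a kinase that makes NAD precursor in muscle, ran from 56.3 to 92.3 FPKM and from 58.0 to 85.1, with amplitudes of 0.25 and 0.06 (limma adjusted p in cK15 = 0.999). Ppp1r3a, which targets a phosphatase to glycogen, was at 6.80 to 20.1 FPKM and 8.46 to 17.3, and its cK15 amplitude of 0.24 did not pass (limma adjusted p = 0.305). Coasy, which completes coenzyme A synthesis, was lower in cK15 (log2 fold change -0.21, SE 0.063; limma adjusted p = 0.0273). Of the 29 genes tested on the list of glucose use and glycogen, the rhythm test called 5 in control and 0 in cK15 (limma, 1 with an unadjusted p under 0.05). Its members, Pfkfb2 and Ppp1r3a, were chosen by their control rhythm, which favours calls in control. By genotype 4 genes of the list were higher and 3 lower in cK15.

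The members furthest below control in cK15 were Prodh and Slc25a34. Prodh encodes proline dehydrogenase, which starts proline breakdown, on chromosome 16 at 18060357 to 18090203, where it overlaps Dgcr6. Control libraries gave 25.9, 28.1 and 25.4 FPKM at 12 am and 16.1, 16.4 and 16.5 at 12 pm, and cK15 libraries 7.61, 8.59 and 6.98 and then 8.98, 6.49 and 7.15. Every cK15 library (4.45 to 8.98) lay below every control library (11.8 to 29.8), with a log2 fold change of -1.53 between the averages (SE 0.074; limma adjusted p = 4.45e-16). In cK15 midnight and noon overlapped, and the amplitude of 0.15 (SE 0.082) did not pass (limma adjusted p = 0.857; control 0.41).

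Slc25a34, of the mitochondrial carrier family, lies on chromosome 4 at 141618824 to 141623821. Its control range of 15.2 to 31.9 FPKM and its cK15 range of 6.57 to 14.01 did not overlap, which makes it and Prodh the 2 members with this property, as for 0.623% of all tested genes. The log2 fold change of the average was -0.99 (SE 0.071; limma adjusted p = 5.65e-12). The neighbouring AI507597, annotated as antisense and overlapping Tmem82, was also lower (5.93 to 19.9 FPKM in control, 1.26 to 12.6 in cK15; log2 fold change -0.93, SE 0.095; limma adjusted p = 1.33e-08). Lgals4, a galectin that binds sugars on glycoproteins, was lower as well (21.8 to 71.2 FPKM and 13.4 to 28.3; log2 fold change -0.85, SE 0.078; limma adjusted p = 1.45e-09). Both of these overlapped between genotypes. Each of these 4 calls held under all 15 other settings.

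Signalling genes differed among themselves. Pik3r1 encodes the regulatory subunit of PI 3-kinase, which passes on insulin signals. In cK15 it was at 41.8, 41.4 and 39.6 FPKM at 8 pm and 28.6, 21.9 and 19.7 at 8 am, and in control at 39.7, 41.1 and 44.6 and then 20.9, 22.2 and 20.4. Evening lay above morning in every cK15 library, as in control, where the choice of members favours it. The cK15 curve passed (amplitude 0.35, SE 0.065, limma adjusted p = 0.0209, control 0.50). Rgs13, a regulator of G protein signalling, passed at a low level (0.576 to 5.04 FPKM in cK15; limma adjusted p = 0.0373). Ppip5k2, an inositol pyrophosphate kinase, passed at a higher level (92.3 to 150 FPKM in cK15; limma adjusted p = 0.0405). Ppip5k2 was also higher in cK15 on average (log2 fold change 0.20, SE 0.044; limma adjusted p = 0.00187).

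Pde7a, which breaks down cyclic AMP, had a large control amplitude and none that passed in cK15. It was at 29.2, 24.6 and 21.7 FPKM at 12 am and 15.2, 10.0 and 12.3 at 12 pm in control, and at 22.2, 17.7 and 17.5 and then 17.0, 14.1 and 11.5 in cK15. The cK15 libraries of midnight still lay above those of noon, at an amplitude of 0.18 (SE 0.077; limma adjusted p = 0.67) beside 0.52 (SE 0.057). Gadd45g, a stress-induced regulator of growth arrest, ran from 2.03 to 8.13 FPKM in control and 3.23 to 8.23 in cK15, with amplitudes of 0.50 and 0.21 (limma adjusted p in cK15 = 0.767). Foxo3, a transcription factor of starvation and stress, had amplitudes of 0.31 and 0.29 and did not pass in cK15 (limma adjusted p = 0.432). Mknk2, a kinase of the translation factor eIF4E, was higher in cK15 (43.5 to 84.7 FPKM in control, 54.0 to 90.0 in cK15; log2 fold change 0.17, SE 0.053; limma adjusted p = 0.0283). On the list of insulin and growth signalling, which holds Pik3r1, 3 of 16 tested genes passed the rhythm test in control and 1 in cK15, with 2 higher and 3 lower by genotype. As Pik3r1 was chosen by its control rhythm, nothing is read from the larger count in control. For autophagy and muscle protein breakdown, the list of Foxo3, the test called 2 of 20 genes in each genotype, and 2 were higher and 2 lower.

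**Figure D5:**
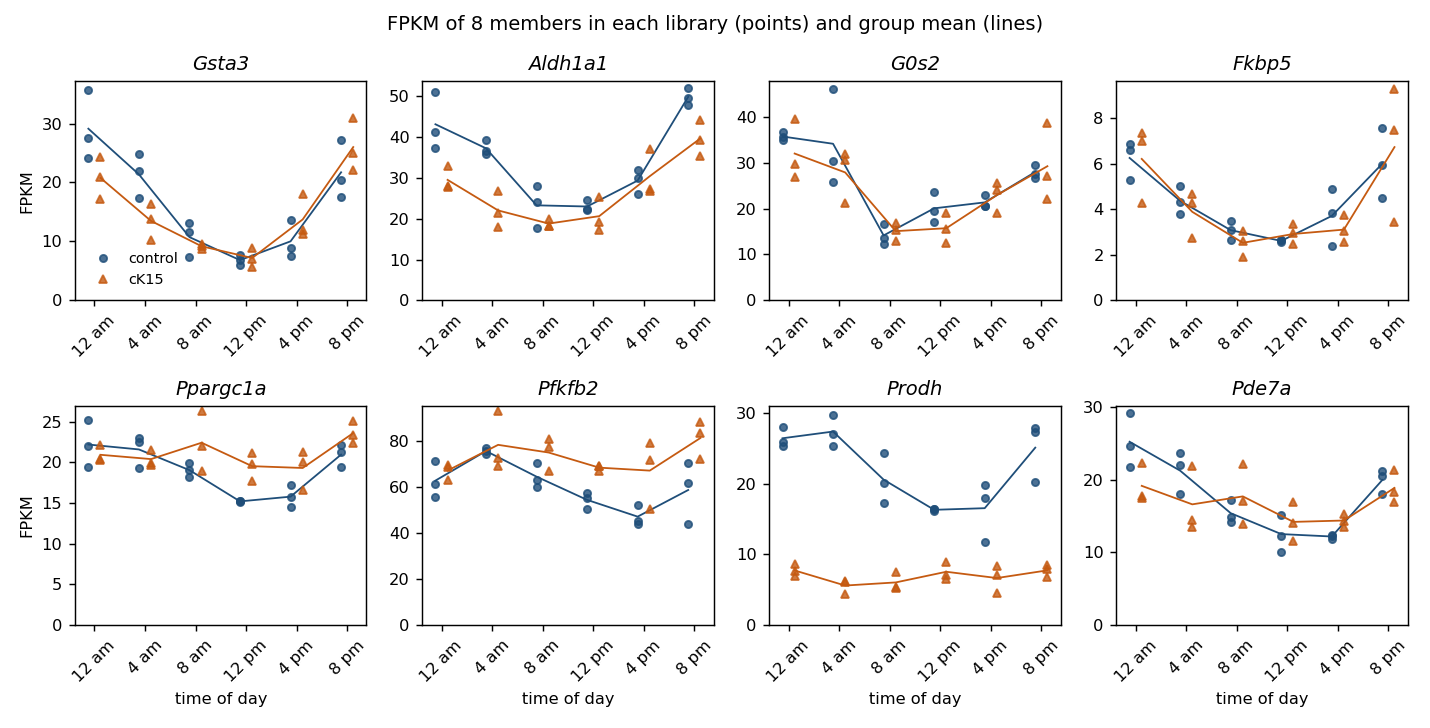
FPKM of 8 members in each library (points) and as group means (lines) over the 6 times of day, control in blue circles and cK15 in orange triangles, with y axes from 0. The Gsta3, Aldh1a1, G0s2 and Fkbp5 curves rise towards night in both genotypes. Those of Ppargc1a and Pfkfb2 are flatter in cK15 (amplitude 0.06 each), a direction that the choice of members favours. The Prodh values of cK15 all lie below those of control.

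The lists of extracellular matrix genes (23 tested) and endothelial markers (8 tested) held 0 members, and the next 4 genes were grouped by their known roles alone. Timp4, an inhibitor of matrix proteases, ran from 12.6 to 52.7 FPKM in control and 15.5 to 66.8 in cK15. Its average was higher in cK15 (log2 fold change 0.37, SE 0.122; limma adjusted p = 0.0499). Aqp1, a water channel of vessel walls, was higher as well (23.7 to 62.9 FPKM and 31.9 to 63.2; log2 fold change 0.27, SE 0.081; limma adjusted p = 0.0295), with overlapping ranges. Ly6c1, a surface protein of endothelial cells and some monocytes, was at 184, 174 and 166 FPKM at 12 am and 113, 101.1 and 80.0 at 12 pm in control, and at 158, 122 and 124 and then 117, 110 and 77.3 in cK15. Lyve1, a hyaluronan receptor of lymphatic vessels and some macrophages, ran from 2.51 to 8.46 FPKM and from 2.13 to 6.81. The cK15 amplitudes of Ly6c1 (0.26) and Lyve1 (0.38) did not pass (limma adjusted p = 0.355 and 0.127), but that of Lyve1 passed without the 12 libraries (0.019). Over the 8 endothelial markers, the summed control level was lowest at 8 pm (416 FPKM) and highest at 8 am (496), and the sum of the 9 macrophage markers was likewise lowest at 8 pm (213) and stood at 221 at 12 am. The part of these cell types in the members' rhythms was not tested. In bulk tissue, fewer cells of a type and less RNA per cell cannot be told apart.

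Nmb, which encodes the peptide neuromedin B, and Cytl1, a secreted cytokine-like protein, completed the members of large amplitude with a secreted product. Nmb ran from 1.13 to 11.1 FPKM in control and 1.47 to 10.5 in cK15, with amplitudes of 0.65 and 0.43 (limma adjusted p in cK15 = 0.453). Cytl1 ran from 2.51 to 10.7 FPKM and from 2.50 to 8.85, with amplitudes of 0.49 and 0.20 (limma adjusted p in cK15 = 0.924). For both the libraries of a group were widely spread.

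Among other protein-coding members, Msantd1 passed the rhythm test in cK15 with a peak at 2.95 h. It was at 3.73, 2.16 and 2.01 FPKM at 4 am and 0.486, 0.528 and 0.769 at 4 pm in cK15, and at 2.10, 1.15 and 1.10 and then 0.561, 0.775 and 0.706 in control. Every 4 am library lay above every 4 pm library in cK15, as in control, where the choice of members favours it. The cK15 amplitude was 0.55 (SE 0.067, limma adjusted p = 0.000222) beside 0.38 (SE 0.080). Its average was higher in cK15 (log2 fold change 0.23, SE 0.070; limma adjusted p = 0.0298). Pdzrn3, a ubiquitin ligase, also peaked late, at 2.30 h in cK15 and 2.44 h in control (limma adjusted p = 0.038). Bclaf1, a nuclear protein of RNA processing, and Ahnak, a giant scaffold protein, passed with peaks at 21.7 h and 20.6 h (limma adjusted p = 0.0373 and 0.0428). Dnaja1, a co-chaperone of HSP70, was higher in cK15 (9.30 to 21.3 FPKM in control, 11.6 to 26.1 in cK15; log2 fold change 0.30, SE 0.077; limma adjusted p = 0.00991), and on the list of cytosolic heat shock and folding genes 4 of 29 were higher and 3 lower.

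Of the noncoding or less described members, 2810403A07Rik, annotated as the protein-coding gene Khdc4, was rhythmic in cK15 with nearly the control curve. Its cK15 amplitude was 0.30 (SE 0.052, limma adjusted p = 0.0109) beside 0.27 in control, with peaks at 22.8 h and 22.9 h. Gm15910, annotated as antisense and overlapping Msrb3 on chromosome 10, was the member furthest above control by genotype (12.9 to 37.1 FPKM and 14.7 to 43.3; log2 fold change 0.38, SE 0.095; limma adjusted p = 0.00705). Gm16023, 4833422C13Rik and 4930429F24Rik were also higher, by log2 fold changes of 0.32, 0.27 and 0.25 (limma adjusted p = 0.00783, 0.00475 and 0.0256). B430212C06Rik and 5031434C07Rik were lower, by -0.53 and -0.27 (limma adjusted p = 1.39e-05 and 0.0483). The ranges of these genes overlapped between genotypes.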

How the data were processed

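RNA of the heart apex was depleted of ribosomal RNA and made into stranded total RNA libraries, sequenced as paired reads, per the labels' protocols. The authors deposited FPKM per gene symbol and library in a table for each genotype. GSNAP, HTSeq and the build mm10 were used, per the submitters' processing notes. The sources used here give neither their versions and roles nor the annotation. Since FPKM are scaled to the library total, a few abundant genes can lower the values of others. The tables held 23352 gene entries, of which 27 symbols had been turned into dates and 2 occurred more than once. None of these was a member.

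Genes averaging 1 FPKM or more over the 36 libraries were tested on log2(FPKM + 1) with limma 3.58.1 (R 4.3.3; trended, robust moderation). Benjamini-Hochberg adjustment ran over all 10599 genes, with 0.05 as the threshold. Fold changes on this scale understate the change of genes of low level. Rhythm in cK15 was tested by an F test of the cosine and sine terms (24 h period) over its 18 libraries, and genotype by the mean of the 6 cK15 groups minus that of the 6 control groups. FPKM keeps no counts, so that no counting interval is given.

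Same-numbered libraries of the genotypes at each time (12 pairs, numbers 3 and 4) deviated together, with correlations of 0.157 to 0.508, so the paired count is given beside the genotype result. In these pairs both libraries stood on the same side of the split between the 12 libraries apart and the other 24. Of 42 pairs with different numbers, 14 had a correlation over 0.1, the highest being 0.54, and the median was -0.255. The number is thus not shown to mark a pair. The labels do not say what a number marks.

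The members and the gene and marker lists were chosen with earlier results of these data known. Genes named in the text are the 15 of largest control amplitude, members on a list, the 8 highest and 8 lowest by genotype, the 12 of smallest p for rhythm in cK15, the 6 of largest control amplitude with an unadjusted p over 0.05 there, and the 2 nearest each threshold. Further genes named with values (Fmo1, Ces1d, Nampt, Nmrk2, Coasy, Mknk2, Ly6c1, Lyve1, Pdzrn3, Ppip5k2 and Ahnak) were chosen after their values were seen. Ifrd1, Txndc16, Fam160a1 and Abca8a are named because every genotype call lost under another setting is listed. Some genes that these rules name are not reported here. The scripts were tested on simulated data. Alternatives were a pseudocount of 0.1, a minimum mean of 5 FPKM or none, rescaling by median ratio or quantiles, leaving out libraries, terms for the replicate number or the libraries apart, time as a factor and moderation without trend.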

Additional observations from a re-analysis of the deposited data

How the results depend on the processing

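The count of members rhythmic in cK15 was 15. It was 9 with no filter on low values, 32 with a replicate block, 35 with a term for the 12 libraries apart, 3 with time as a factor of 6 levels, and 4 to 10 when a cK15 replicate was left out. The other settings gave 12 to 15. The shares of all tested genes under other settings are not given in this section, for rhythm or for genotype. Between times, same-numbered libraries of a genotype deviated together in 35 of 45 pairs (correlation over 0.1), which were the 35 pairs on the same side of the split between the 12 libraries apart and the rest. The 10 pairs on different sides were all negative in both genotypes. Not every pair passed, so the rhythm fit was kept without the block. With the replicate block the rule itself gave 145 genes.

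Of the members that differed by genotype (29, with 16 higher and 13 lower in cK15), 18 were called without the 12 libraries apart (8 higher) and 15 to 23 when a replicate was left out (4 to 14 higher, 8 to 14 lower). The replicate block gave 20 (9 higher), and with a term for the 12 libraries apart all 29 calls held. Rescaling by median ratio or quantiles gave 31, of which 19 or 20 were higher and 12 or 11 lower. No member passed the test of a difference in rhythm in any setting run.

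The rule gave 99 genes from the 18 control libraries, 162 without the libraries apart (67 of the 99 among them), 168 to 177 when a control replicate was left out (73 to 82 of the 99), and 25 when applied to the cK15 libraries. An earlier cK15 peak was found for 13 to 14 of the 15 rhythmic members, and for 14 of 14 clock genes, when a replicate was left out.

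Over 84 results for single genes and 1136 values under other settings, 940 kept their side of the threshold, 167 calls were lost, 29 were gained and 0 changed direction. In every setting 9 of 29 genotype calls and 3 of 15 rhythm calls held (Gsta3, Aldh1a1 and Msantd1). The causes were not tested.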
